A study of Mus musculus with 20 samples.

Results

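Mouse embryonic stem cells of state 2, sorted as low for Nanog and high for Sox2, were compared by RNA-seq with cells of state 1, sorted as high for both. The comparison takes in 6 samples, replicates A, B and C of each state, of 20 samples in the series, and all 29692 genes of the deposited RNA-seq table. The same table also holds state 3, low for both factors, and the unsorted total population, with 3 samples each. All cells were grown in fetal bovine serum with leukemia inhibitory factor (LIF), no group carries a named allele or treatment, and the labels name neither the cell line nor the way the factors were read in the sorter. RNA was depleted of ribosomal RNA before sequencing. The labels do not say that the replicates were separate cultures, and the authors merged them, so each gene has 1 value per state, without a spread between samples.

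Nanog and Sox2 are DNA-binding factors that work with Oct4 (Pou5f1) to keep embryonic stem cells undifferentiated. In serum cultures Nanog varies between cells, and cells can lose and regain it. Loss of Nanog is known to accompany the passage from naive pluripotency, the condition of the preimplantation epiblast, toward the formative condition of the epiblast after implantation. The comparison asks what else differs in RNA between cells that part in Nanog while both were sorted as high for Sox2.

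A gene was called different where the authors' posterior probabilities for expression patterns that set state 1 and state 2 apart summed to at least 0.95. The table does not spell out which pattern is which, so their order was inferred from the values, and counts that move by over 1.5 times under the next best order, with state 1 and the total population exchanged, are given with that order too. These probabilities may reflect technical spread only. Log2 ratios are log2((state 2 + 1)/(state 1 + 1)) of the authors' normalized values, so a positive ratio is higher in state 2, and the ratios of low genes are understated. The value that recurs most among low genes of a column, 0.32 in state 1 and 0.28 in state 2, was taken as the worth of 1 read. By this estimate about 55.4 M reads stand behind state 1 and 60.4 M behind state 2. A gene listed at 0 could thus have a value of up to 0.96 in state 1 or 0.84 in state 2, for counting error only.

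The values of the sorted factors followed the labels. Nanog RNA had a value of 4145 in state 1 and 743 in state 2 (log2 -2.48), with 2783 in the total population and 440.0 in state 3. Sox2 had 4155 in state 1 and 3167 in state 2 (log2 -0.39), a smaller difference that was also called. Pou5f1 had 13810.4 and 10275 (log2 -0.43) and was not called (posterior 0.927). The step from state 1 to state 2 thus held a called fall in Sox2 RNA too, smaller than that of Nanog.

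The bases before the start of Nanog are shown because they carry a composite of a SOX and a POU site, a kind of element at which Sox2 and Oct4 are known to bind side by side (RefSeq, GRCm38.p6, chr6:122707239-122707488, plus strand). Capitals mark the composite, CATTGT and ATGCAAA with 1 base between them, here read on the opposite strand.
Nanog: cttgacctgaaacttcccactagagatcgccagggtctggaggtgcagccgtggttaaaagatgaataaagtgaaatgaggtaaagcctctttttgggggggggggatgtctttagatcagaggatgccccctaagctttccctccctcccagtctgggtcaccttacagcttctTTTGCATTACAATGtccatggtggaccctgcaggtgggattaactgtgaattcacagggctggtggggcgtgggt
The site began at base 176 of the 250 shown. Both strands of 1 window of 300 bases per gene were searched. Among 27025 windows in the table this exact composite occurred in 1, that of Nanog. The letters were added to the search after the values were seen, and variants of the composite were not searched. The count thus does not show that Nanog alone carries such an element. The match describes the letters and says nothing of binding in either state.

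Of all 29692 genes, 3990 (13.4%) were called between the states. State 2 was higher for 2111 (7.11%) and lower for 1879 (6.33%). Among the 14955 genes with a mean of the 2 states of at least 10, 25.5% were called, 13.2% higher and 12.3% lower. The median log2 ratio was 0.0 over all genes and -0.01 over those with a mean of at least 10. These shares are the background for the counts of gene groups given here. The shares also vary with abundance, as given next, and no share matched for abundance was computed for a list. In sorted populations fewer cells of a type and less RNA per cell cannot be told apart.

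Rises and falls differed in size and in the genes they fell on. Called rises had a median log2 ratio of 0.99 with quartiles of 0.57 and 1.74, and called falls had a median of -0.54 with quartiles of -0.94 and -0.36. At least 2-fold changes numbered 1044 rises and 421 falls, at least 4-fold changes 409 and 74, and at least 8-fold changes 123 and 5. Genes that rose were of lower abundance: their median value was 99.9 in state 1 and 226 in state 2, against 642 and 435 for those that fell. Between mean values of 10 and 100, 14.2% of genes rose and 5.4% fell, whereas between 1000 and 10000, 9.9% rose and 20.8% fell. Among called genes, falls were thus many and shallow at high abundance, and rises were steeper and lay more often at low abundance. Calls themselves depend on abundance: of 8892 genes with a mean of 1 or less, 0 were called. How far the call limit shapes this contrast was not tested. The total population has libraries of its own and holds cells of each state. Its value lay between those of state 1 and state 2 for 91.7% of the genes that rose and 93.3% of those that fell. These genes were chosen for a gap between the states, by probabilities over patterns that take in the total population. The shares are thus no independent check of the calls.

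**Figure D1:**
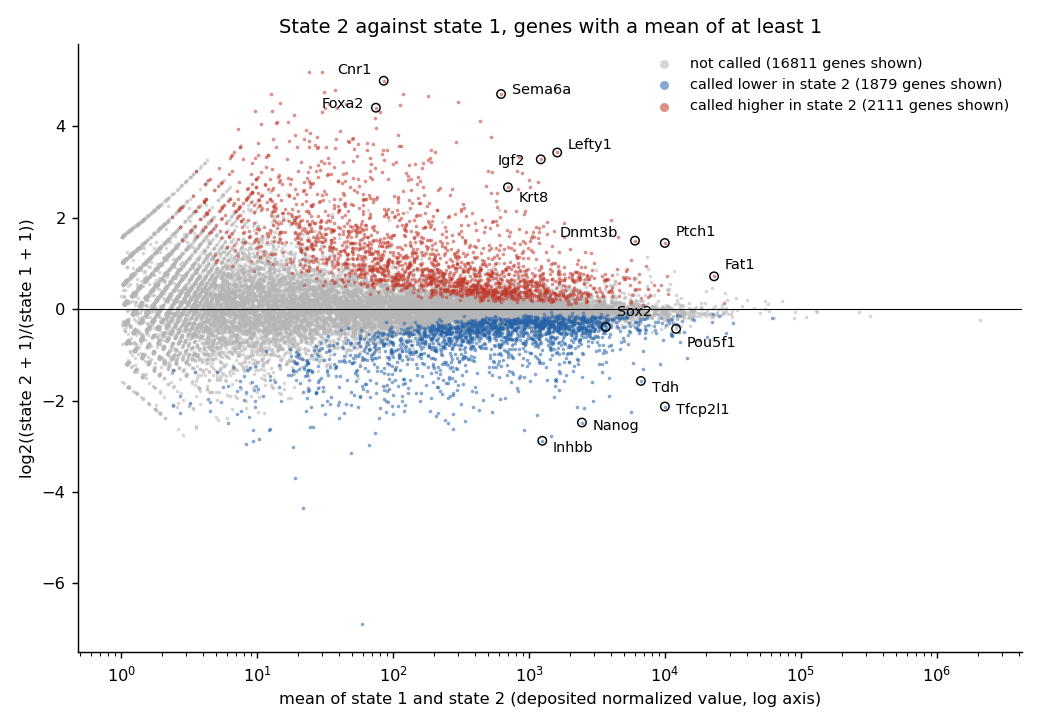
Log2 ratio of state 2 to state 1 (vertical axis) against the mean deposited value of the 2 states (horizontal log axis) for genes with a mean of at least 1, 1 point per gene, red for genes called higher, blue for genes called lower and grey for genes not called. Large rises lie mostly at low mean values, and named genes such as Tfcp2l1, Tdh and Nanog are abundant genes with large falls.

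The 15 largest rises were taken among called genes with at least 5 ppm of a column total in a state, and began from values of 2.93 to 70.2 in state 1. Cnr1, the cannabinoid receptor CB1 (GRCm38 chromosome 4, 33923171 to 33948831), had 4.21 in state 1, or about 13 reads, and 166 in state 2 (log2 5.0). Has2, which makes the matrix polysaccharide hyaluronan, had 6.75 and 154 (log2 4.32). Enpp2, the secreted enzyme autotaxin that makes lysophosphatidic acid, had 6.82 and 141 (log2 4.18). All 3 genes had intermediate values in the total population, of 25.8, 49.1 and 50.7. Zfp608, a zinc finger gene, had 23.5 and 572 (log2 4.54), and Pkdcc, a secreted kinase, had 13.6 and 203 (log2 3.81). The remaining 10 of the group were Sema6a, Trim67, Vrtn, Fgf5, Foxa2, Thbs1, Shisa6, Tagln, Rasef and Irgm1.

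The 15 largest falls included the transporter Slc15a1 (88.7 and 9.13, log2 -3.15), which takes up small peptides, and Myo1f, an unconventional myosin (118 and 14.3, log2 -2.97). Calcoco2, an autophagy receptor, had 407 in state 1 and 74.5 in state 2 (log2 -2.43). Mras, a Ras-like GTPase, had 1914 and 385 (log2 -2.31), and Mymx, known for its part in muscle cell fusion, had 457 and 91.8 (log2 -2.30). All 5 of these remained above the depth limit in state 2. The other 10 were Inhbb, Tbx3, Itpka, Jam2, Msc, Aqp3, Nanog, Bmp4, Islr2 and Prdm14.

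Among called genes the largest fall in value was that of Tfcp2l1, a factor of the naive network downstream of LIF, at 16245 in state 1 and 3698 in state 2 (log2 -2.13). Enah, a regulator of actin filament growth, had 19774 and 9417 (log2 -1.07). Trim28, a corepressor of zinc finger proteins at silenced repeats, had 33028 and 23162 (log2 -0.51), and Trip12, a ubiquitin ligase, 24660 and 16224 (log2 -0.60). The largest called gain in value was that of Fat1, a giant protocadherin, at 17330 and 28530 (log2 0.72). Lrp2, the endocytic receptor megalin, had 1645 and 6417 (log2 1.96).

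Most transcription factors of the naive network fell. Of 17 measured, 15 fell and 0 rose, and the median member stood at -1.89. Nanog, for which the cells were sorted, is among those that fell and enters this median. The orphan nuclear receptor gene Esrrb had 9206 in state 1 and 1945 in state 2 (log2 -2.24). Zfp57, which protects methylation at imprinted loci, had 4718 and 1173 (log2 -2.01), and Nr0b1 had 1052 and 273 (log2 -1.94). Gbx2, at 1394 and 1005 (log2 -0.47), and Dppa3, at 162 and 167, were the members that were not called. Of 21 factors of the formative epiblast 11 rose and 1 fell (median 0.33), and with state 1 and the total population exchanged in the inferred order of the patterns 6 rose and 1 fell. Sall2, a zinc finger factor, had 450 and 1453 (log2 1.69), while its relative Sall3 had 383 and 135 (log2 -1.49). Utf1, at 4868 and 4447, was not called.

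Within families of factors, members moved in opposite directions. Sox genes split evenly, with 5 of 17 higher and 5 lower: Sox18 had 59.7 and 366 (log2 2.60) and Sox4 630.3 and 1504, while Sox21 had 146 and 30.1 (log2 -2.24) and Sox15 101 and 28.4 (log2 -1.79). Of 23 Krüppel-like and Sp factors 4 rose and 9 fell. Klf7, at 415 and 1139 (log2 1.45), rose, and Klf8, at 422 and 170 (log2 -1.31), and Klf5, at 5328 and 2859 (log2 -0.90), fell. Of 16 factors that control epithelial and mesenchymal programmes 7 rose and 2 fell, and the zinc finger repressors Zeb1 and Zeb2 parted: Zeb1 had 458 and 134 (log2 -1.77) and Zeb2 35.8 and 148 (log2 2.02). Grhl2, a factor of epithelial junction genes, had 560.0 and 1006 (log2 0.84). The epithelial splicing factor Esrp1 had 551 and 1397 (log2 1.34), and Rbm47, another RNA-binding splicing factor, had 1497 and 730.2 (log2 -1.03).

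Homeobox genes had 14 members higher and 3 lower of 50, and 9 and 2 under the exchanged order. Zic2, a zinc finger factor listed with them, had 79.4 in state 1 and 200 in state 2 (log2 1.32). Cdx1, a caudal factor of the posterior embryo, had 95.9 and 30.3 (log2 -1.63), and Nkx6-2 had 168 and 82.5 (log2 -1.02). Among GATA, T-box and helix-loop-helix factors 6 of 33 rose and 2 fell, the latter being Tbx3 and Msc, and the neural factor Neurod1 had 46.0 and 166 (log2 1.83). Of 35 germline genes 3 rose and 6 fell: Ddx4, a germ cell helicase, had 259 and 391 (log2 0.59) and Piwil2, which binds small RNAs that silence transposons, had 489 and 278 (log2 -0.81).

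Among Nodal and activin genes 1 of 8 ligands rose and 1 fell, 3 of 11 receptors and Smads rose and 1 fell, and 5 of 14 inhibitors and processing genes rose and 1 fell. Inhbb, which encodes the beta B subunit of activin and inhibin (chromosome 1, 119415463 to 119422248), had 2201 in state 1 and 298 in state 2 (log2 -2.88), and Gdf1, a partner ligand of Nodal, had 62.7 and 115 (log2 0.86). Foxh1, the DNA-binding partner of the pathway's Smads, had 291 and 501 (log2 0.78), and the receptor Acvr1b had 607 and 398 (log2 -0.61). Nodal's coreceptor gene Tdgf1 had 6956 and 7247 and was not called. Of the inhibitors and processing genes, Lefty2, a secreted Nodal antagonist, had 297 and 1314 (log2 2.14), Skil, a Smad-binding repressor that the pathway induces, had 2272 and 6790 (log2 1.58), and Furin, a protease that matures the ligands, had 378 and 815 (log2 1.11). Pcsk6, a second ligand protease, had 974 and 486 (log2 -1.0). Lefty2 and Lefty1 lie side by side on chromosome 1, and all 4 neighbours from 180893108 to 180975106 with a mean of at least 10 rose, Tmem63a from 148 to 486 among them.

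Hedgehog pathway genes showed a pattern that peaked in state 2 for 1 member. Ptch1, the Hedgehog receptor and itself a target of the pathway (chromosome 13, 63508328 to 63573460), had 5342 in state 1 and 14567 in state 2 (log2 1.45). It stood at 5864 in state 3 and 7498 in the total population, so state 2 was highest of the 4 groups. Gli2, a transcription factor of the pathway, had 3690 and 838 (log2 -2.14), while Gli3 had 349 and 860 (log2 1.30) and Smo, the signal transducer, 638 and 1025 (log2 0.68). Gli1, usually read as a pathway target, had 1847 and 1919 and was not called. In all, 5 of 14 members rose and 1 fell.

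Ligands and receptors of other pathways held called members in both directions. Among Wnt genes 5 of 18 ligands rose from values under 10, such as Wnt4 from 5.86 to 42.8, and 0 fell, but only 1 rose under the exchanged pattern order. Of 18 Wnt receptors 7 rose and 1 fell. Fzd2 rose from 180.0 to 497 (log2 1.46), Fzd5 fell from 4753 to 2074 (log2 -1.20), and Porcn, which lipidates Wnt proteins, fell from 263 to 83.0 (log2 -1.65). Of 8 ephrins, membrane-bound ligands of cell repulsion, 4 rose and 0 fell, with Efnb2 at 343 and 1110 (log2 1.69) and Efna5 at 12.6 and 97.9 (log2 2.86). Of 13 of their receptors 4 rose and 1 fell, with Epha1 at 78.4 and 446 (log2 2.49) and the exception Epha4 at 807 and 336 (log2 -1.26). Semaphorins split into 8 that rose and 5 that fell of 20: Sema3e had 239 and 975 (log2 2.02) and Sema5b had 359 and 99.1 (log2 -1.85). Among receptor tyrosine kinases 6 of 26 rose and 2 fell, with the collagen receptor Ddr1 at 353 and 1489 (log2 2.08) and Kit, the stem cell factor receptor, at 980.3 and 250 (log2 -1.97).

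Notch, FGF, LIF and growth factor genes gave mixed counts. Of 22 Notch genes 9 rose and 3 fell. The receptors parted, with Notch3 at 594 and 1461 (log2 1.30) and Notch4 at 198 and 41.5 (log2 -2.23), Lfng, an enzyme that modifies Notch receptors, had 39.4 and 166 (log2 2.05), and Rbpj, the DNA-binding partner of Notch, had 6707 and 3936 (log2 -0.77). Of 10 FGF ligands 4 rose and 3 fell: Fgf4, the main autocrine FGF of embryonic stem cells, had 2527 and 1286 (log2 -0.97), and Fgf15 had 152 and 268 (log2 0.82). Feedback and target genes of the ERK cascade split, 5 of 18 higher and 4 lower. The phosphatase Dusp5 had 170 and 394 (log2 1.21) and the ETS factor Etv4 had 2199 and 1116 (log2 -0.98). In the LIF list of 18, 3 rose and 7 fell, and the kinase Pim2 had 197 and 1566 (log2 2.99) while Socs3, the feedback inhibitor, had 2057 and 1247 (log2 -0.72). Among lysophosphatidic acid receptors, which answer the product of Enpp2, Lpar4 had 41.3 and 220 (log2 2.38), Lpar2 301 and 512 (log2 0.76) and Lpar1 253 and 105 (log2 -1.26).

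**Figure D2:**
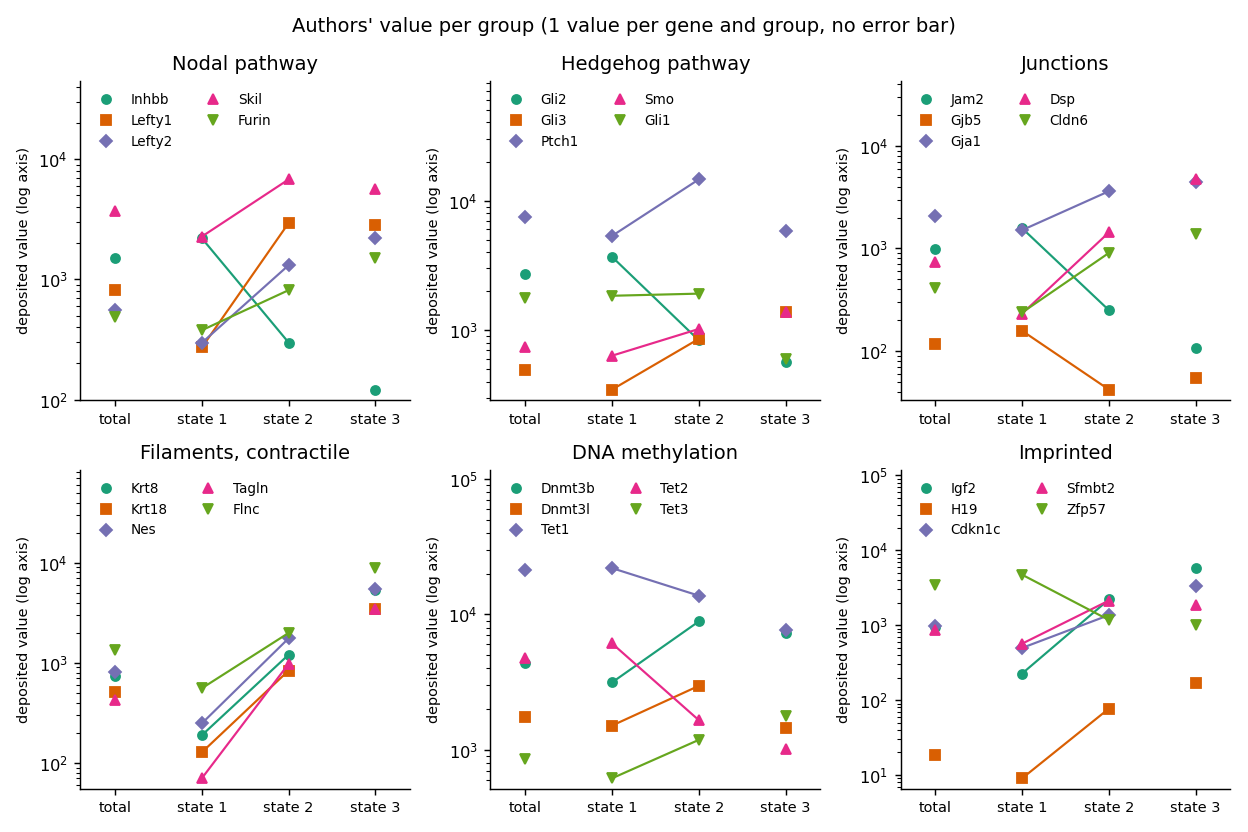
Authors' value per group (log axis) for 30 genes of 6 pathways or functions in the total population and in states 1, 2 and 3, with lines joining state 1 and state 2 of a gene. Ptch1, Lefty1, Dnmt3b and Dnmt3l have their highest value in state 2, while the keratin and contractile genes are higher in state 3 than in state 2.

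Over a group of contractile and filament genes, rises outnumbered falls. Of 28 actin and contractile genes 16 rose and 0 fell, with a median log2 ratio of 0.96. With the exchanged pattern order 10 rose. Cnn1, an actin-binding protein of smooth muscle, had 10.00 in state 1 and 133 in state 2 (log2 3.61). Flnc, a filamin that crosslinks actin, had 558 and 1991 (log2 1.83), and Zyx, a focal adhesion protein, 230.3 and 796 (log2 1.78). The abundant actins were not called, with Actb at 50747 and 57694 and Actg1 at 37327 and 43155. Among intermediate filament genes 9 of 18 rose and 1 fell, and 5 rose and 1 fell under the exchanged order. The partner keratins Krt8 and Krt18 had 189 and 1208 (log2 2.67) and 128 and 838 (log2 2.70). Nefm, a neurofilament, had 16.4 and 205 (log2 3.57), while Vim, at 995 and 1065, was not called.

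Of 28 desmosome and tight junction genes 12 rose and 4 fell: Dsp, the desmosome anchor desmoplakin, had 231 and 1435 (log2 2.63), and the claudins Cldn6 and Cldn7 had 237 and 904 (log2 1.93) and 51.4 and 261 (log2 2.32). Jam2, a junctional adhesion molecule, went the other way, at 1572 and 249 (log2 -2.65). Of 21 gap junction and immunoglobulin-type adhesion genes 5 rose and 5 fell, with the connexin Gjb5 at 157 and 41.9 (log2 -1.88) lower and Gja1 at 1509 and 3616 (log2 1.26) higher. Of 21 cadherins 10 rose and 2 fell. Cdh1, the cadherin of epithelia and embryonic stem cells, had 7766 and 12924 (log2 0.73), and Cdh2, the cadherin of neural and mesenchymal cells, had 31.0 and 227 (log2 2.83). Both were higher in state 2, with Cdh1 at the larger value in either state.

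Matrix genes were also higher in part. Of 28 laminin and basement membrane genes 10 rose and 2 fell, and 6 rose and 2 fell under the exchanged order. The paired collagen IV genes Col4a1 and Col4a2 had 277 and 1767 (log2 2.67) and 117 and 951 (log2 3.01), while Nid1, which links laminin to collagen IV, had 2295 and 791 (log2 -1.54). Frem1 and Fras1, partners in 1 basement membrane complex, had 21.6 and 163 (log2 2.86) and 33.6 and 184 (log2 2.42). Fibronectin, Fn1, the most abundant matrix gene tested here, had 27060 and 24793 and was not called. Among Hippo and TEAD genes 9 of 22 rose and 1 fell: the targets Cyr61 and Ctgf had 342 and 1517 (log2 2.14) and 351 and 1070 (log2 1.61), Tead3 had 75.8 and 345 (log2 2.17), and Tead4 had 339 and 151 (log2 -1.16).

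Markers of other cell types are given here beside these groups. Of 13 markers of feeder fibroblasts 1 rose, the collagen Col3a1 from 2.61 to 21.4, and 0 under the exchanged order. Their summed value was 502 in state 1, 644 in state 2, 613 in the total population and 1682 in state 3. Of 13 blood and endothelial markers and of 12 markers of 2-cell-like cells 0 were called, but only 4 of the former and 0 of the latter had a mean of at least 10, and no gene with a mean of 1 or less was called. Their summed values were 993 and 818, and 13.1 and 8.2. Of 17 markers of primitive and visceral endoderm 4 rose and 1 fell, and their sum went from 2044.5 to 3557. The risers were Foxa2, Apob, Dab2 and Col4a1, and the 1 that fell was Sox7. Only 9 of these 17 markers had a mean of at least 10. Between mean values of 1 and 10, only 2.3% of genes rose and 0.6% fell. The defining endoderm genes Sox17 (1.60 and 2.65), Gata6 (5.51 and 3.14), Pdgfra (5.50 and 4.55) and Gata4 (15.8 and 31.6) were not called, and Ttr was listed at 0 in both states. Immediate early genes, which cell handling can induce, rose in 16 of 20 cases with 0 falls (median 1.19), Fosl2 from 28.0 to 262 (log2 3.18) and Klf6 from 495 to 1735 (log2 1.81). The part of these cells and of handling in the cytoskeletal, adhesion and matrix results was not tested.

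**Figure D3:**
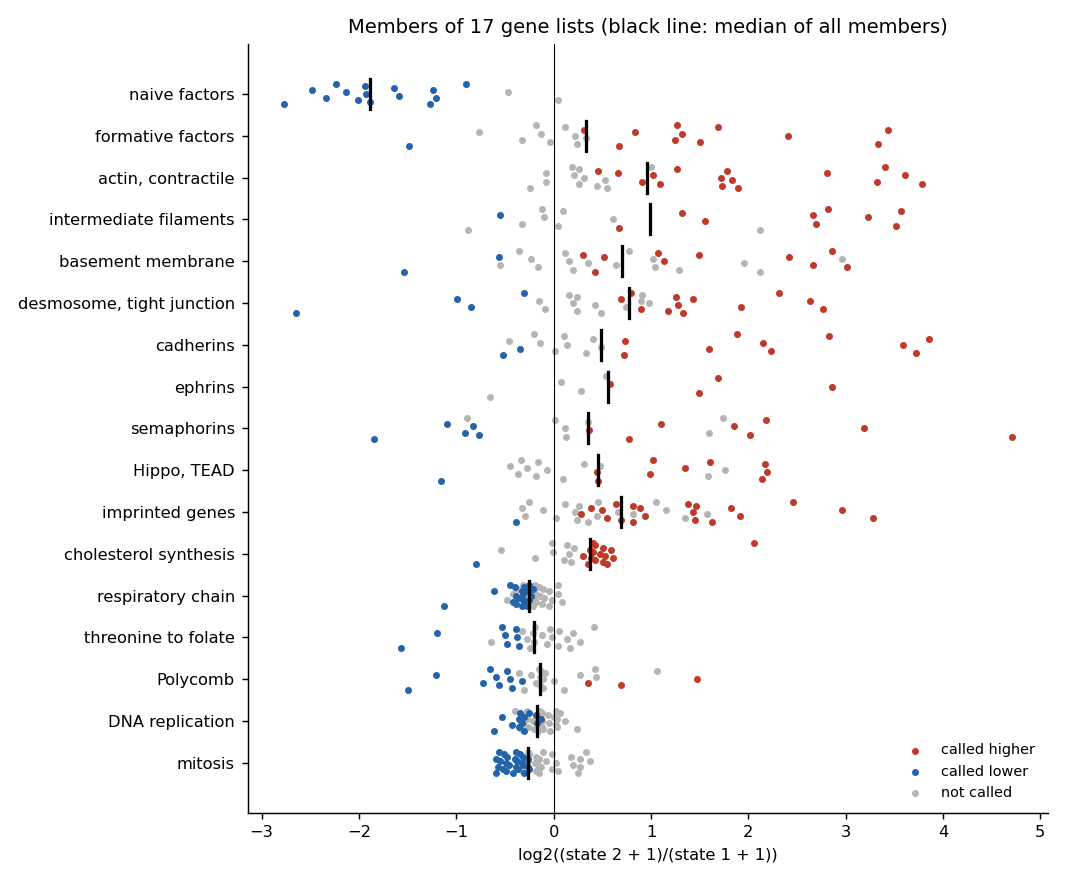
Log2 ratio of state 2 to state 1 (horizontal axis) for every measured member of 17 gene lists, 1 point per gene, coloured by call, with the median of all members as a black line. The naive factors, Nanog among them, lie to the left, with a median of -1.89, and the cytoskeletal lists spread far to the right. Most of the cholesterol synthesis list lies above 0 (median 0.37, range -0.80 to 2.06), with 5 of 26 members below. The respiratory chain list lies mostly below 0 (median -0.25, range -1.13 to 0.09).

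Imprinted genes, which are expressed from 1 parental copy and include many growth regulators, rose in 20 cases and fell in 1. The list has 39 members, with a median log2 ratio of 0.69. Igf2, a fetal growth factor (chromosome 7, 142650768 to 142666816), had 227 in state 1 and 2209 in state 2 (log2 3.28), and H19, the noncoding RNA of the same domain that comes from the other parental copy, had 9.05 and 77.2 (log2 2.96). Both members of this reciprocal pair were thus higher. Cdkn1c, a growth-restraining cell cycle inhibitor, had 498 and 1364 (log2 1.45), and Grb10, an adaptor that dampens insulin signalling, had 4126 and 6643 (log2 0.69). Peg3, a paternally expressed zinc finger gene, had 810.4 and 2112 (log2 1.38), and its neighbour Usp29 had 26.2 and 74.0 (log2 1.46). Peg10 had 4586 and 10203 but was not called (posterior 0.926). The exception was Ppp1r9a, at 1611 and 1230.8 (log2 -0.39).

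DNA methylation enzymes changed in both directions. The de novo methyltransferase Dnmt3b had 3139 and 8874 (log2 1.5), while Dnmt3a had 3383 and 4886 and was not called. Of the dioxygenases that start demethylation, Tet2 had 6108 and 1652 (log2 -1.89), Tet1 22010 and 13765 (log2 -0.68) and Tet3 614 and 1180 (log2 0.94). In the whole list of 20, 4 rose and 6 fell.

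Polycomb genes, whose products keep developmental genes silent, fell more often than they rose, with 10 of 30 lower and 3 higher (median -0.14). All 30 had a mean of at least 10. Falls also outnumbered rises among abundant genes at large, with 20.8% lower and 9.9% higher between mean values of 1000 and 10000. The excess of falls is thus in part shared with abundant genes. Epop, a cofactor of the methyltransferase complex PRC2 that is abundant in embryonic stem cells, had 5759 and 2033 (log2 -1.50), and Phf19, another PRC2 cofactor, had 320 and 137 (log2 -1.21). Eed, a core subunit, had 2874 and 1833 (log2 -0.65). Phc2, at 433 and 701 (log2 0.69), and Yaf2, at 48.3 and 135 (log2 1.47), belong to PRC1 complexes and rose. Epop and Pcgf2, a PRC1 subunit, are neighbours on chromosome 11, and all 4 genes with a mean of at least 10 from 97627387 to 97702434 fell, with Mllt6 at 3190 and 1391 and Cisd3 at 424 and 142 between them.

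The histone gene families were singled out after the values were seen. Of 66 replication-dependent histone genes, whose messages are made in S phase and end in a stem-loop instead of a poly(A) tail, 50 rose and 0 fell. All 66 had a higher value in state 2, with a median log2 ratio of 0.68. Their summed value was 153382 in state 1 and 239375 in state 2, a ratio of 1.56. The 5 classes gave ratios of 1.40 for H1, 1.65 for H2A, 1.59 for H2B, 1.62 for H3 and 1.57 for H4. The clusters on chromosomes 13, 3 and 11 gave 1.53, 1.66 and 2.68, and Hist4h4 on chromosome 6 had 1027 and 2084 (log2 1.02). The total population, at 233076, and state 3, at 223976, stood near state 2, so state 1 was the group set apart. The unsorted total population had 1.52 times the state 1 sum. For the lists of DNA replication and mitosis genes this ratio was 0.96 and 0.94. Gm26917, the most abundant gene, made up 12.6% of the state 1 column, 11.2% of state 2, 11.7% of state 3 and 10.4% of the total population. Whether the state 1 cells or their libraries differ was not tested. With state 1 and the total population exchanged in the pattern order, only 1 of the 66 was called. These genes are near-identical copies, so the division of reads between single genes is uncertain, and class sums are safer than gene values. The libraries were made by rRNA depletion, which does not require a poly(A) tail.

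Other genes of chromatin assembly and the cell cycle went another way. Replacement histones, made outside S phase from polyadenylated messages, had 1 member higher and 5 lower of 11: H2afz had 9322 and 7616 (log2 -0.29), H2afy 2172 and 1401 (log2 -0.63) and the centromeric Cenpa 1904 and 1439 (log2 -0.40), while H3f3a had 6690 and 7154 (log2 0.10). Of 42 DNA replication genes 15 fell and 0 rose (median -0.17), with the licensing factor Cdt1 at 3847 and 2526 (log2 -0.61) and Mcm6, a helicase subunit, at 9301 and 7252 (log2 -0.36). Of 49 mitosis genes 25 fell and 0 rose (median -0.26), and 14 fell under the exchanged order. Bub1b, a spindle checkpoint kinase, had 4646 and 3181 (log2 -0.55), and Mki67 had 8340 and 9425 and was not called. Of 9 genes for processing histone messages 0 rose and 2 fell.

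**Figure D4:**
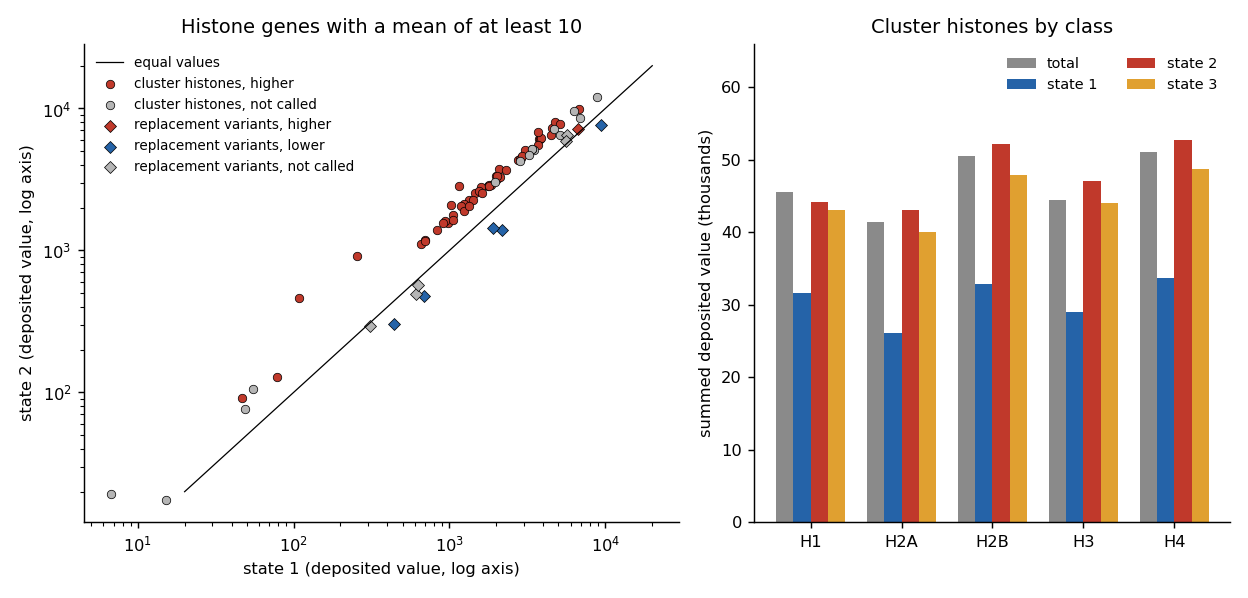
Left, value in state 2 against state 1 (both log axes) for cluster histone genes (circles) and replacement variants (diamonds) with a mean of at least 10, coloured by call, with the line of equal values. Right, summed value of each histone class in the 4 groups; state 1 has the lowest bar in all 5 classes, 153382 in sum against 239375 in state 2.

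Genes of G1, of p53 and of cell death moved both ways. Of 26 G1 cyclins and inhibitors 8 rose and 5 fell. Ccnd2 had 387 in state 1 and 677 in state 2 (log2 0.81), while its relative Ccnd3 had 4999 and 1917 (log2 -1.38) and E2f2, a factor of S phase entry, had 590.4 and 170 (log2 -1.79). Of 23 genes of the p53 network 13 rose and 3 fell, with the inhibitor Cdkn1a at 247 and 455 (log2 0.88) and Perp, a desmosome protein, at 485 and 928 (log2 0.93). Trp53 itself fell, at 7475 and 5478 (log2 -0.45). In the Bcl2 family of 17, 5 rose and 3 fell. The death-promoting Bcl2l11 had 838 and 1623 (log2 0.95) and the protective Bcl2 had 21.6 and 120 (log2 2.42), so genes of opposite function were both higher. Mcl1, the most abundant member not called, had 5657 and 6199.

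Of the metabolic lists, 2 had falls and no rises and others moved both ways. Of 26 genes for threonine, serine, glycine and folate metabolism 8 fell and 0 rose (median -0.21). Tdh, the threonine dehydrogenase on which mouse embryonic stem cells are known to depend, had 9930.0 in state 1 and 3349 in state 2 (log2 -1.57), and Gcat, the next enzyme of the same pathway, had 613 and 466 (log2 -0.39). Of 50 nuclear genes for the respiratory chain 20 fell and 0 rose (median -0.25), with Cox5a at 1935 and 1267 (log2 -0.61) and Cox4i1 at 7298 and 5339 (log2 -0.45). Of 78 mitochondrial ribosomal protein genes 16 fell and 0 rose (median -0.17), against 1 fall and 0 rises among 77 cytosolic ones (median -0.10). Of 13 messages encoded by the mitochondrial genome 0 were called, 11 had a higher value in state 2 and the median log2 ratio was 0.50. Their summed value was lowest in state 1, at 167240. It was 186591 in state 2, 187632 in state 3 and 196703 in the total population. Cpt1a, which admits fatty acids to mitochondria, had 779 and 285 (log2 -1.44), while Acsl4, which activates long fatty acids, had 466 and 1249 (log2 1.42). In glycolysis 5 of 33 genes rose and 5 fell, and Hk1 had 763 and 343 (log2 -1.15).

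Cholesterol synthesis genes mostly rose, by a narrow margin. Of 26 genes of the pathway and its regulation, 16 rose and 1 fell, with a median log2 ratio of 0.37, and their summed value went from 26353 to 33342. Hmgcs1, an early enzyme, had 2868 and 3795 (log2 0.40) and Cyp51, a late one, 753 and 1132 (log2 0.59). The exception was Ebp, at 201 and 116 (log2 -0.80), which lies on chromosome X in a stretch of 4 neighbours that all fell, from Tbc1d25 to Ftsj1 (8154470 to 8252406), Porcn among them. Srebf2, the factor that drives the pathway, had 3358 and 3764 and was not called.

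Promoter windows of some members are shown because most windows found for the list share an element. For 8 members no window was found. The CCAAT box, a promoter element bound by the factor NF-Y and read here as CCAAT on either strand, was present in 17 of 18 windows found for the list (94.4%), against 39.3% of 10224 windows of genes with a mean of at least 10. It was present in 8 of the 9 windows of members that rose, in that of Ebp, and in all 8 of members that were not called, so its presence did not separate the calls. The sterol element TCACNCCAC was in 1 of the 18, that of Hmgcs1, against 1.10% of the 10224. Variants of the element were not searched, so the count does not show that the other windows lack one. Capitals mark CCAAT boxes and, in Hmgcs1, the sterol element at base 114. Hmgcs1, Hsd17b7 and Msmo1 rose and Mvk, at 234 and 205, was not called (RefSeq, GRCm38.p6; chr13:119690101-119690350, plus strand; chr1:169969206-169969455, minus strand; chr8:64733579-64733828, minus strand; chr5:114444019-114444268, plus strand).
Hmgcs1: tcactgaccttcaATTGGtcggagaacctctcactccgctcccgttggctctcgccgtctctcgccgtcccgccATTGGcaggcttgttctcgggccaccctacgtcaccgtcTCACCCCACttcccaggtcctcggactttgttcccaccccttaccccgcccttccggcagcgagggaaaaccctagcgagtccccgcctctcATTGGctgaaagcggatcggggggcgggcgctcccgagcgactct
Hsd17b7: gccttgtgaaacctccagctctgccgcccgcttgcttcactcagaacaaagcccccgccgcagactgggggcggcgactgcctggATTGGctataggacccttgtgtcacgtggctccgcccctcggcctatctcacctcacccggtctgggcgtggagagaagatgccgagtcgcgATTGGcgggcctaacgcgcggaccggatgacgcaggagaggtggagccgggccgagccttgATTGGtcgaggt
Msmo1: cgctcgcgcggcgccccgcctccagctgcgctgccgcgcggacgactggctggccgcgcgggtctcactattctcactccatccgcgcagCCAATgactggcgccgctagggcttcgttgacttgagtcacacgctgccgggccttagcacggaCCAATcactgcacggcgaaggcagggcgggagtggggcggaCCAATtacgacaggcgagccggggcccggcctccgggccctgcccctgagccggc
Mvk: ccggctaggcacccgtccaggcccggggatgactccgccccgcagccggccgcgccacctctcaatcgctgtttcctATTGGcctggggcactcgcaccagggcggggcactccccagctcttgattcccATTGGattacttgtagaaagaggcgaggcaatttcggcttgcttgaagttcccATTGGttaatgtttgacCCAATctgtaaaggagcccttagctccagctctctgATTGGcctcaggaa
Within the full windows of 300 bases Hmgcs1 held 4 CCAAT boxes, Hsd17b7 and Msmo1 held 3 each and Mvk held 5.

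Over all genes with a mean of at least 10, most motifs searched were near equally common in the promoters of rising, falling and uncalled genes. The largest gap between genes called and not called was in the ETS motif CCGGAAG, known from promoters of broadly expressed genes. It was in 20.6% of 7434 windows of genes not called, in 15.4% of 1398 that fell and in 10.1% of 1392 that rose. Of genes that changed at least 2-fold it was in 7.08% of those that rose and in 5.88% of those that fell. Its share was thus lower in called genes and lowest in large changes of either direction. TATAAA was in 6.58% of windows of uncalled genes and in 7.04% and 6.37% of all that rose and fell. In large rises and falls it was in 8.96% and 11.8%. The median number of CpG dinucleotides in a window was 21 for genes not called. It was 22 and 21 for all rises and falls, and 19 and 16 for large ones.

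By chromosome, the X carried the highest share of rises. Of 480 X-linked genes with a mean of at least 10, 99 rose (20.6%) and 41 fell (8.5%), while on the autosomes between 9.7% and 18.7% rose and between 7.2% and 15.9% fell. The chromosomes and the stretches named from here on were chosen after the values were seen. At the X inactivation centre, which controls the silencing of an X in female cells, the 4 neighbours with a mean of at least 10 from Jpx to Rlim (103493558 to 103981296) rose. Rlim, an activator of Xist, had 3635 and 7673 (log2 1.08), and Ftx, a noncoding RNA, 160.0 and 328 (log2 1.03). Xist itself had 9.33 and 7.67 and was not called, and its antisense partner Tsix had 367 and 268 (log2 -0.45).

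**Figure D5:**
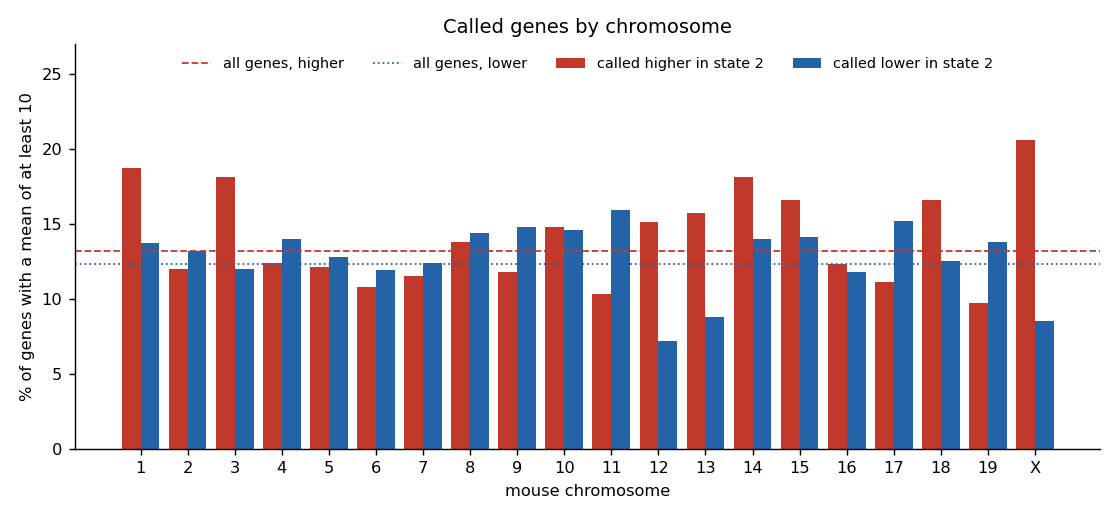
Share of genes with a mean of at least 10 that were called higher (red) or lower (blue) in state 2, by mouse chromosome, with dashed and dotted lines at the shares over all such genes (13.2% and 12.3%). The X has the tallest red bar, at 20.6%, and chromosomes 11, 17 and 19 are among those with more falls than rises.

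Called genes of like direction also lay next to each other elsewhere. Among genes with a mean of at least 10, 39 stretches of at least 4 neighbours shared a direction, 21 higher and 18 lower, the longest with 6 genes. On chromosome 7 (142575530 to 142969264) H19, Igf2, the overlapping Igf2os and Ascl2, a helix-loop-helix factor of trophoblast at 16.4 and 35.0, all rose. On chromosome 17 (36969207 to 37074305) 5 genes fell, Zfp57 with H2-M5 at 355 and 72.4 and Gabbr1, a GABA receptor subunit, at 1259 and 454 among them. On chromosome 17 also (35263094 to 35443773) the class I histocompatibility genes H2-D1, H2-Q4, H2-Q6 and H2-Q7 rose, H2-D1 from 142 to 233, but the H2-Q genes are near-identical copies. The wider list of interferon and antigen presentation genes had 14 members higher and 5 lower of 31, with the transporter Tap1 at 45.1 and 119 (log2 1.38) and the RNA sensor Ddx58 at 383 and 158 (log2 -1.27). A stretch on the X (106420041 to 107816334) held 5 rises, led by Fndc3c1 at 41.4 and 536 (log2 3.66). Genes that overlap can share reads, since the sources used here do not say how strand was used in counting.

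Lysosomal genes had 7 of 32 members lower and 2 higher, with Tfeb, a transcription factor of lysosome genes, at 366 and 172 (log2 -1.09) and the hydrolase Glb1 at 780.0 and 399 (log2 -0.97), against Ctsl, a cathepsin, at 1554 and 2601 (log2 0.74). Of 34 proteasome genes 2 rose and 0 fell. Of 41 chromatin remodellers and histone enzymes 6 rose and 8 fell, Smarcd3, a BAF complex subunit, at 166 and 50.9 (log2 -1.69) and Smarca1, an ISWI helicase, at 287 and 607 (log2 1.08). Amino acid transporters moved both ways, 8 of 28 higher and 5 lower, with Slc7a7 at 2143 and 3556 (log2 0.73) and the arginine transporter Slc7a1 at 3049 and 2137 (log2 -0.51).

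Noncoding genes were called in smaller numbers. Of 1975 lincRNA genes 16 rose (0.8%) and 31 fell (1.6%), and of 1514 antisense RNAs 6 rose (0.4%) and 10 fell (0.7%). Over all genes 7.11% rose and 6.33% fell. Only 249 of the lincRNA genes and 146 of the antisense RNAs had a mean of at least 10. Mir124a-1hg, the host of a neural microRNA, had 452 in state 1 and 143 in state 2 (log2 -1.65), and Gm53 had 177 and 61.2 (log2 -1.52). Gm29895 had 8.70 and 214 (log2 4.47), and Gm16233, an antisense gene, 7.37 and 102 (log2 3.62).

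Some large differences were not called, and some calls rest on values at the depth limit. Among genes with a mean of at least 100, 16 differed at least 2-fold without a call. The largest, chosen after its values were seen, was Itpr2, an intracellular calcium channel, with 218 and 987 (log2 2.18, posterior 0.853), and Col5a1 had 143 and 452 (posterior 0.937). In 4 called genes state 1 was listed at 0, and in 1 state 2 was. Antxr2, a receptor for basement membrane proteins, was among the former, and its value in state 2 was 19.21. Since only merged values were used, the spread between replicates behind these calls is not known here.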

How the data were processed

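RNA-seq values of state 1 and state 2 were compared over 29692 genes. The deposited values are a signal per gene and group that the authors normalized; they are not counts and their column totals differ. The authors also give a score for each of 15 expression patterns, a posterior probability in EBSeq's column naming, per the file headers. RSEM 1.2.30, STAR 2.4.1d and the builds GRCm38 and mm10 are named in the submitters' processing notes. The scaling and merging of libraries are not described in the sources used here. The 6 libraries enter as 2 merged values, so no count test, p-value or replicate error could be computed.

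The posterior that the states differ was the sum over patterns that set them apart, called at 0.95 with direction from the values. Pattern order was inferred: groups set equal lay closer than groups set apart in 94.4% of 1453 genes, against 90.8% with state 1 and the total population exchanged. The sums were run on simulated data that gave each true pattern a probability above the limit, with the same patterns and group order. This checks the code only and cannot test the inferred order or the calls.

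The comparison and the gene lists were chosen with earlier results of these data known. The text names Pou5f1 and the sorted factors, the 15 largest rises and falls among called genes with at least 5 ppm of a column total in a state (no predicted models, pseudogenes or small RNAs), per list up to 6 called members, up to 2 called against its majority and the most abundant one not called, the 10 most abundant called genes and the 5 largest differences each way, and 5 noncoding genes each way. Outside this rule, with values known, were named the genes of stretches and histone families, defining markers, and Actg1, Dnmt3a, Dppa3, Grb10, H19, Hmgcs1, Klf5, Msmo1, Mvk, Peg3, Porcn, Usp29, Vim, Wnt4 and Zyx. The 18 genes without a name stayed out of lists, and 39 symbols were shared by several genes.

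Coordinates are from RefSeq genes, matched by symbol for 23085 genes. Promoter windows (RefSeq, 250 bases before and 50 after the first listed start) matched 15461 genes. Motifs searched on both strands, which may overlap, were the TATA box, read as TATAAA, the promoter element CCAAT, the GC box of the Sp family, read as GGGCGG, the E-box of helix-loop-helix factors, read as CACGTG, sites of the factor AP-1, read as TGANTCA, those of the TEAD family, read as GGAATG, those of the ETS family, read as CCGGAAG, the octamer of POU factors, read as ATGCAAAT, the extended monomer site of Esrrb, read as TCAAGGTCA, sites of the TCF/LEF family, read as CTTTGAT, those of the E2F family, read as TTTCGCGC, those of the STAT family, read as TTCCNGGAA, and, added after the values were seen, the POU-SOX composite and the sterol element. Work was done in Python 3.11.15 with numpy 2.4.6, pandas 2.3.3 and matplotlib 3.10.9. Alternatives were other posterior limits, the exchanged order, other scalings, a rule of size alone, a minimum mean and leaving out histone genes.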

Additional observations from a re-analysis of the deposited data

How the results depend on the processing

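Counts of called genes stayed within 1.5 times of 3990 (2111 higher, 1879 lower) with limits of 0.90 (4330) and 0.99 (3426), with a minimum mean of 10 (3820), without the histone clusters (3940, chosen after seeing the data), and with the exchanged pattern order (3303, of which 3302 had the same direction). A rule of size alone, at least 2-fold with a mean of at least 10, gave 1594 genes, 1106 higher and 488 lower. Of the called genes, 1044 of 2111 rises and 421 of 1879 falls were at least 2-fold. A pseudocount of 10 lowered steep rises from low values, Cnr1 to 3.63; pseudocounts cannot reverse a ratio and the scalings are too small to reverse most of them. Of 74 list medians, members with a mean of at least 10 gave -0.01 for Nodal ligands, -0.17 for FGF ligands and 0.03 for germline genes, against 0.09, 0.22 and -0.15 over all members. Equal column totals, which shift the median gene by 0.067 log2, turned the medians of LIF genes to 0.01, chromatin remodellers to 0.06 (0.01 when centred on the median gene), chaperones to 0.02 and glycolysis to 0.04. Called counts of 10 lists moved by over 1.5 times under the exchanged order, and the cause was not tested. Besides those given with the results, BMP ligands went to 2, semaphorin receptors to 2 and other collagens to 4 called members. No paired analysis was possible because the table holds 1 merged value per group, and leaving out replicates was not run for the same reason. Depth limits values near 0.84 to 0.96.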
